A study of Mus musculus with 9 samples.

Results

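The angiopoietins and Tie receptors were followed as 7 genes: the ligands Angpt1 and Angpt2, the receptors Tek (Tie2) and Tie1, the phosphatase Ptprb, and the angiopoietin-like genes Angptl2 and Angptl4. They were selected by gene symbol, without regard to their values, and all 7 were found among 48587 names listed beside 92 spike-in controls. All 7 also passed the filter on low counts in each of the 3 comparisons.

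The samples came from C57BL/6J mice 12 weeks old, in which retinal vein occlusion (RVO) was induced by laser after injection of 200 mg/kg eosin Y, a photosensitizer. In RVO eyes all large veins were laser-treated, and in control eyes the laser scheme (50 mW, 50 µm spots, 2.5 s) was repeated between the large vessels. By the study's time course, part of the occluded veins reopened within days of treatment. Their share in each pool is not given. The control eye was the other eye of each RVO mouse. Both were taken 2 days after laser treatment, whereas untreated eyes came from mice without laser treatment. Each of the 3 groups held 3 samples, and each sample was a pool of 6 retinas from 6 mice, so that n counts pools. The control eyes carried laser lesions too, and were therefore matched to RVO eyes for the laser treatment but not free of its effects. The comparison of RVO and control eyes thus addressed the occlusion and the laser site (on veins or between vessels), which cannot be told apart. That of control and untreated eyes addressed the laser treatment as a whole, and whether untreated mice received eosin Y is not stated.

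Angiopoietins are secreted ligands of Tek, a receptor tyrosine kinase of endothelial cells. Angpt1, made mainly by cells around the vessel, activates Tek and stabilizes vessels, whereas Angpt2, which endothelial cells can release from stores, acts as a weak or opposing ligand and loosens them. Tie1 binds no angiopoietin by itself but forms complexes with Tek, and Ptprb (VE-PTP) removes phosphate from Tek. The angiopoietin-like proteins resemble the ligands in structure but do not bind Tie receptors: Angptl4 inhibits lipoprotein lipase, and Angptl2 is a secreted factor linked to inflammation.

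The 7 genes are annotated at the following loci of build GRCm38 (GENCODE vM21). Angpt1 lies at chr15:42424723-42676977 on the minus strand, Angpt2 at chr8:18690263-18741562 (minus), Tek at chr4:94739289-94874976 (plus) and Tie1 at chr4:118471191-118490061 (minus). Ptprb lies at chr10:116275523-116389535 (plus), Angptl2 at chr2:33216069-33247717 (plus) and Angptl4 at chr17:33773750-33781830 (minus). Angpt2 is placed within Mcph1 and Angptl2 within Ralgps1, each on the opposite strand and with 0 shared exon bases. Angpt1 shares 737 exon bases (14.2% of its exons) with the antisense gene Gm17473, which had 0 to 2 counts per sample.

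The regions before the starts of Tek and Angptl2 are shown because these genes stood on opposite sides in RVO eyes relative to control eyes. Each is the RefSeq stretch of 250 bases upstream of the start, on build GRCm38.p6, printed 5′ to 3′ on the strand of the gene, with GGAA, the core letters of ETS factor sites, in capitals on either strand (as GGAA or TTCC).
Tek, chr4:94739039-94739288, plus strand: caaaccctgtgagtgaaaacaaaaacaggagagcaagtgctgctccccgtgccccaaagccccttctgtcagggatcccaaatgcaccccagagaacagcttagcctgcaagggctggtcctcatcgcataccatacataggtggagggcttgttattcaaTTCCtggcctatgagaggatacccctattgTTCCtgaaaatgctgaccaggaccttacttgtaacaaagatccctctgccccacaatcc
Angptl2, chr2:33215711-33215960, plus strand: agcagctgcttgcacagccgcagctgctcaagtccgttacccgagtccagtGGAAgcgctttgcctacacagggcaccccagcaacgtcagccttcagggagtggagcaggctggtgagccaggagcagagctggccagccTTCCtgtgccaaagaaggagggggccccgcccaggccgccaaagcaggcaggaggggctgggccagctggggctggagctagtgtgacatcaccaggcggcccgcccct

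Both windows held 2 matches of GGAA, which is common: 93.4% of 32851 RefSeq promoters held at least 1 match, the median was 3 and 76.8% held 2 or more. The window of Tie1 held 7 matches, and 3.82% of promoters held that many or more. It is not printed, as 212 of its 250 bases lie in an annotated exon of Tie1. The letters ACGTG, the core of the hypoxia response element, were not found on either strand in these 3 windows, and 16.6% of promoters held them. These matches describe the letters and not the binding of a factor.

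Total counts ranged between 12377572 and 15245869 for untreated, between 18897218 and 23419497 for control and between 21022997 and 28993921 for RVO samples. Values are given as normalized counts, scaled to 1e+06 counts per library after scaling by edgeR's TMM factors (CPM), and 1 count was worth between 0.0319 and 0.0909 CPM. The retinal origin was evident from 8 rod photoreceptor markers, whose summed level was 85978 to 87758 CPM in untreated, 55006 to 67100 CPM in control and 44803 to 48754 CPM in RVO samples. Of these, 8 of 8 were called lower (adjusted p under 0.01) in the last than in the first group, beside 24.6% of all genes tested. The summed level of 7 lens markers was 1.43 to 8.60 CPM in untreated samples, with Mip and Lim2 at 0, but 81.8 to 1066 CPM in control and 68.2 to 2444 CPM in RVO samples. Relative to untreated samples, 5 of 5 lens markers tested were called higher in control eyes and 2 of 4 in RVO eyes. The shares of all genes tested were 27.2% and 27.4%. The part of lens RNA in the results was not tested. In pooled tissue, fewer cells of a type and less RNA per cell cannot be told apart.

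**Figure D1:**
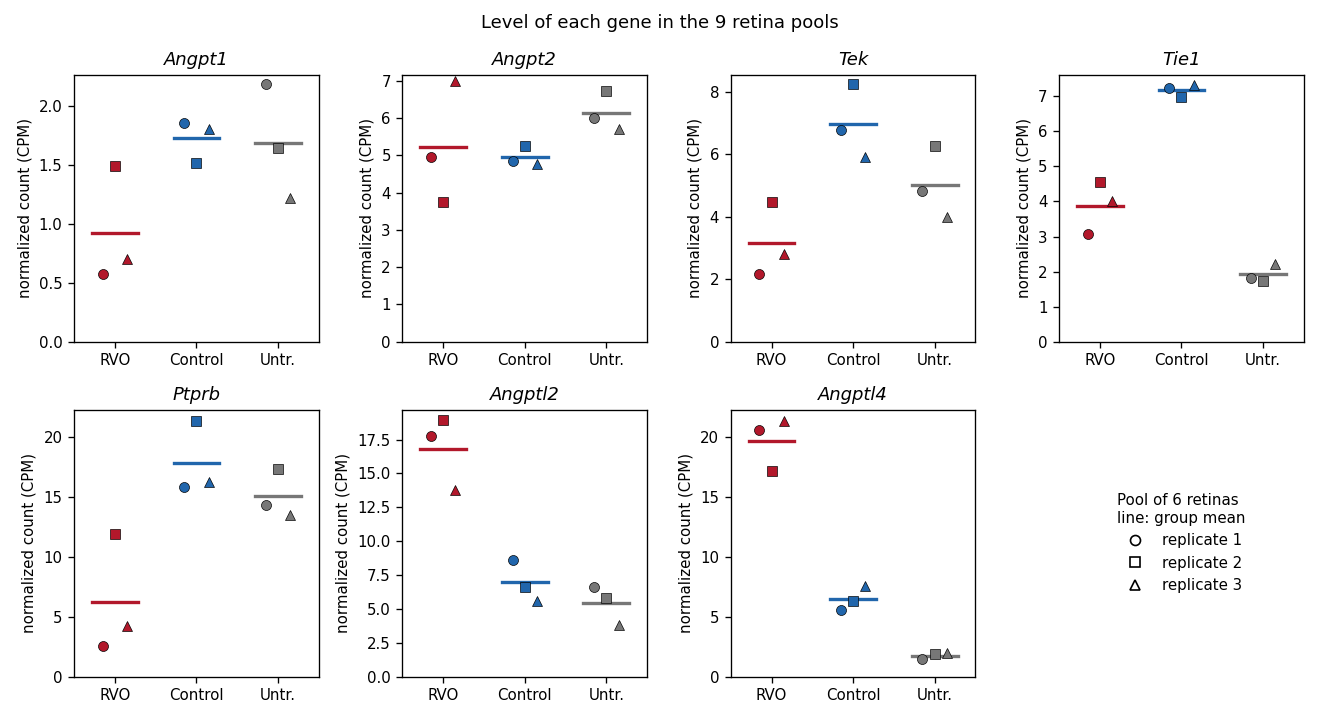
Normalized count (CPM, linear axes from 0) of each of the 7 genes in the 9 pools, with 1 symbol per replicate number and a line at the group mean. Angptl4 was separated in all 3 groups (17.1 to 21.3 CPM in RVO, 5.57 to 7.58 CPM in control, 1.45 to 1.93 CPM in untreated samples), while Tie1 was highest in control samples (6.98 to 7.33 CPM).

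The ligand Angpt1 was the least expressed of the genes and rested on 16 to 43 counts per sample. Its levels were 0.574, 1.49 and 0.704 CPM in RVO samples 1 to 3, 1.86, 1.52 and 1.80 CPM in control samples and 2.18, 1.64 and 1.22 CPM in untreated samples. RVO samples 1 and 3 were below every other sample, whereas RVO sample 2 lay just below the lowest control and above the lowest untreated sample. Relative to untreated samples the log2 fold change was -0.84 ± 0.41 (SE, 95% interval -1.78 to 0.11), and relative to control samples -0.92 ± 0.35 (-1.75 to -0.10), with adjusted p values of 0.103 and 0.0782 (edgeR's quasi-likelihood test, Benjamini-Hochberg adjustment over all genes tested). Neither passed the threshold of 0.01. Control and untreated samples differed by 0.08 on the log2 scale, with an interval of -0.47 to 0.64.

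Angpt2, the ligand that loosens vessels, was measured at 4.94, 3.74 and 7.0 CPM in RVO samples, 4.84, 5.26 and 4.77 CPM in control samples and 6.00, 6.73 and 5.72 CPM in untreated samples. The RVO samples held both the lowest and the highest of the 9 values. Between RVO and control samples the log2 fold change was 0.08 ± 0.23, with an interval of -0.47 to 0.62 and an adjusted p of 0.812. The interval gives the changes compatible with these values and is not the limit of what the test could detect. Control samples were all below the untreated samples, but the log2 fold change of -0.29 ± 0.14 (interval -0.59 to 0.01) did not pass (adjusted p = 0.0802). Between RVO and untreated samples it was -0.20 (interval -0.76 to 0.35), and 0.01 when libraries were scaled by their totals alone. Angpt2 is also known from horizontal cells of the retina, and the summed level of 6 horizontal cell markers was 534 to 607 CPM in untreated, 344 to 374 CPM in control and 77.1 to 215 CPM in RVO samples. Of these 6, 5 were called lower in RVO and 3 in control relative to untreated samples, beside 24.6% and 25.2% of all genes. Most of the sum came from Prox1, Tfap2b and Calb1 (means of 221, 216 and 117 CPM in untreated samples). These were the 3 called in control samples. There, Lhx1 (-0.34, adjusted p = 0.0682), Onecut1 (-0.74, 0.014) and Onecut2 (-0.19, 0.194) did not pass 0.01 (edgeR). The part of horizontal cells in the Angpt2 values was not tested.

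The ratio of Angpt2 to Angpt1, which sets the 2 ligands against each other within a sample, was computed from counts. It was 8.61, 2.51 and 9.94 for the RVO samples, 2.61, 3.47 and 2.65 for the control samples and 2.75, 4.10 and 4.71 for the untreated samples. RVO samples 1 and 3 had the highest ratios and RVO sample 2 the lowest of all, so that the groups overlapped in each comparison. The exact two-sided permutation p was 0.4 against either other group and 0.2 between control and untreated samples. With 3 against 3 samples the smallest p that this test can give is 0.1.

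Among the receptors, Tie1 rose in both laser-treated groups. Its levels were 1.82, 1.72 and 2.22 CPM in untreated samples, 3.06, 4.55 and 4.01 CPM in RVO samples and 7.24, 6.98 and 7.33 CPM in control samples. The 3 groups did not overlap, and the control samples were the highest. Relative to untreated samples, Tie1 was 3.76-fold higher in control eyes (log2 fold change 1.91 ± 0.16, adjusted p = 8.41e-07) and 2.04-fold higher in RVO eyes (1.03 ± 0.23, adjusted p = 0.00449). The latter call was lost without RVO sample 3 or any of the untreated samples (adjusted p between 0.0117 and 0.0245), and when trends with GC content and length were removed (log2 fold change 0.56, adjusted p = 0.0648). Relative to control samples the log2 fold change of RVO samples was -0.90 ± 0.17 with an adjusted p of 0.013, which missed the threshold.

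Tek, the receptor of the angiopoietins, was measured at 2.17, 4.46 and 2.82 CPM in RVO samples, 6.79, 8.24 and 5.91 CPM in control samples and 4.82, 6.26 and 4.00 CPM in untreated samples. All RVO samples were below all control samples, and RVO sample 2 lay within the untreated range. No comparison passed 0.01. The log2 fold change was -1.15 ± 0.27 between RVO and control samples (adjusted p = 0.0194), -0.65 ± 0.30 between RVO and untreated samples (0.0844) and 0.49 ± 0.18 between control and untreated samples (0.0316).

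Ptprb, the phosphatase that acts on Tek, varied most among RVO samples, at 2.55, 11.9 and 4.18 CPM. Control samples had 15.8, 21.3 and 16.2 CPM and untreated samples 14.4, 17.3 and 13.5 CPM. The 3 RVO samples were the lowest of the 9, with RVO sample 2 nearest to the other groups. The log2 fold change was -1.53 ± 0.49 relative to control samples (interval -2.69 to -0.38, adjusted p = 0.047) and -1.26 ± 0.48 relative to untreated samples (interval -2.37 to -0.16, adjusted p = 0.0451), and neither passed 0.01. Control and untreated samples differed by 0.26 ± 0.13 (adjusted p = 0.111).

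These calls depended on RVO sample 2. Of the RVO samples, it had the highest summed level of lens (2444 CPM), horizontal cell (215 CPM) and pigment cell markers (475 CPM). It was also highest for pericyte and smooth muscle (171 CPM) and Mueller cell markers (2818 CPM). The mean log2 CPM of 14 endothelial markers was 3.50 in this sample, beside 2.74 and 3.11 in RVO samples 1 and 3. Its neutrophil markers had the lowest sum (46.5 CPM), and the part of these differences in the calls was not tested. Without RVO sample 2, Ptprb was lower by log2 fold changes of -2.44 relative to control samples (adjusted p = 2.79e-05) and -2.14 relative to untreated samples (4.31e-07), and Tek by -1.51 (0.000302) and -0.97 (0.00179). Angpt1 then also passed, at -1.46 (0.00153) and -1.33 (0.00318), and Tie1 passed relative to control samples at -1.05 (0.000635). Over all genes, leaving out RVO sample 2 raised those called lower from 107 of 16874 to 3315 of 17199 relative to control samples. Relative to untreated samples, they rose from 4037 of 16380 to 5055 of 16300. No other sample, when left out, brought Angpt1, Tek or Ptprb below 0.01 in these 2 comparisons.

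**Figure D2:**
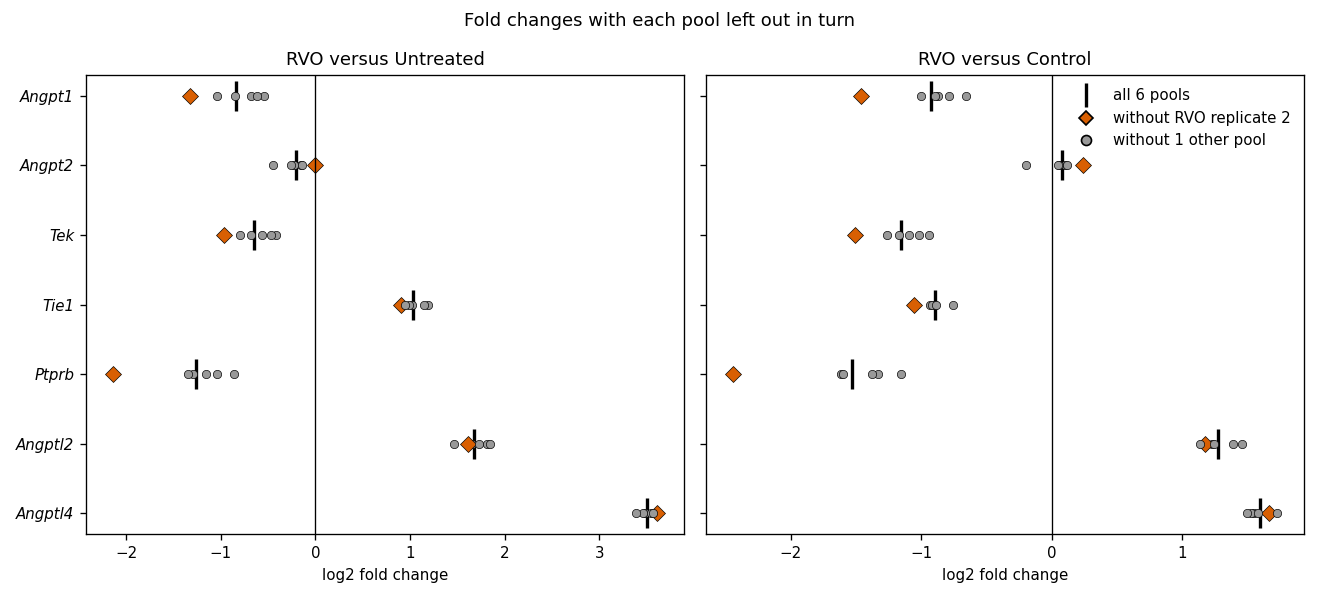
Log2 fold change of each gene with all 6 pools of a comparison (black bar), without RVO replicate 2 (orange diamond) and without each of the other pools (grey circles). Leaving out RVO replicate 2 moved Ptprb to -2.14 relative to untreated and -2.44 relative to control samples, while Angptl4 stayed between 3.39 and 3.61 and between 1.5 and 1.73.

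The 2 receptors were also compared within samples. The ratio of Tie1 to Tek counts was 0.377, 0.275 and 0.554 in untreated samples, 1.07, 0.847 and 1.24 in control samples and 1.41, 1.02 and 1.42 in RVO samples. Every laser-treated sample was above every untreated one, by 1.72 in RVO and 1.43 in control samples on the log2 scale (exact two-sided permutation p = 0.1 each, the smallest possible, and 0.2 after adjustment over 12 ratio tests). RVO and control samples overlapped, with a difference of 0.29 (exact p = 0.3). The ratio of Ptprb to Tek was lower than in untreated samples by 0.86 in RVO and 0.25 in control samples on the log2 scale, again without overlap (exact p = 0.1, adjusted 0.2), and RVO and control samples overlapped (exact p = 0.3).

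**Figure D3:**
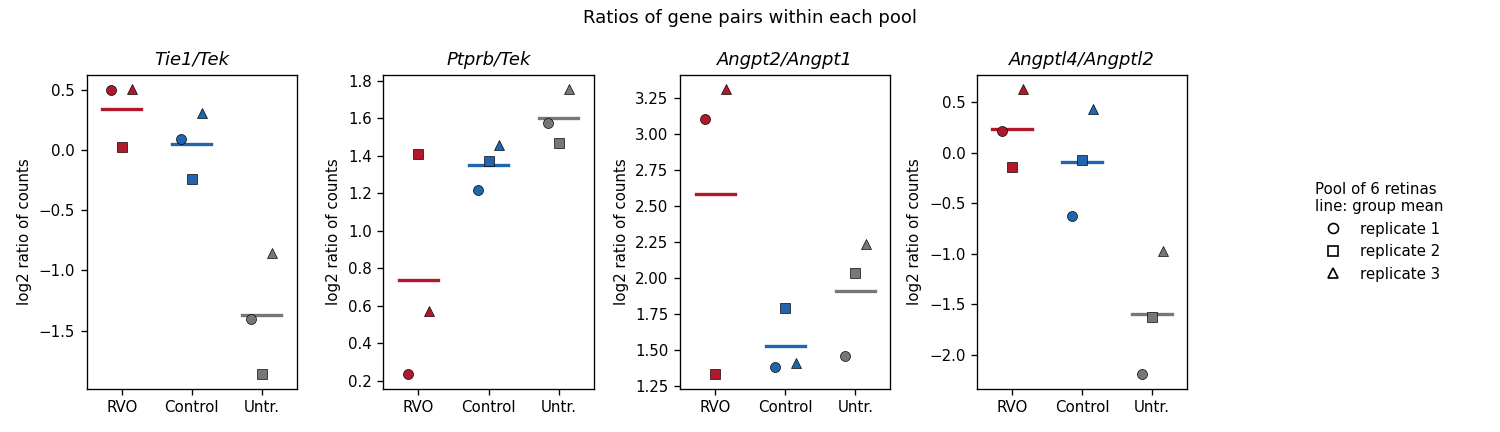
Log2 ratio of counts of 4 gene pairs in each pool, with a line at the group mean. For Tie1/Tek and Angptl4/Angptl2 all laser-treated samples were above the untreated ones, and for Angpt2/Angpt1 the RVO samples spread from 1.33 to 3.31.

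Since Tek, Tie1 and Ptprb are expressed mainly by endothelial cells, they were set against 14 other endothelial markers. Of these markers, 11 were called higher and 0 lower (adjusted p under 0.01) for control relative to untreated samples, beside 27.2% and 25.2% of all genes tested, led by Vwf (log2 fold change 2.92), Cldn5 (1.82) and Eng (1.43). In RVO relative to untreated samples 4 were higher (Vwf 1.70, Egfl7 1.63, Cdh5 1.5 and Pecam1 0.63) and the transporter Slco1a4 was lower (-1.60), beside 27.4% and 24.6% of all genes. Relative to control samples, 1 was lower in RVO samples, the transcription factor Sox17 (-1.61), and under 0.05 there were 6 lower (Sox17, Cldn5, Kdr, Esam, Vwf and Slco1a4) and 1 higher (Egfl7). Of all genes tested, 0.634% were lower and 2.7% higher under 0.01, and 17.1% and 17.5% under 0.05. The summed level of the 14 markers was 291 to 300 CPM in untreated, 481 to 540 CPM in control and 264 to 428 CPM in RVO samples, and none was at 0. Most of this sum came from Kdr and Flt1 (means of 128 and 97.8 CPM in untreated samples). The medians of the 14 log2 fold changes were 0.98 (control to untreated), 0.51 (RVO to untreated) and -0.44 (RVO to control), beside 0.01, 0.01 and 0.02 over all genes tested.

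Relative to the mean log2 CPM of these 14 markers, Tie1 remained above the untreated level, by 0.90 in control and 0.61 in RVO samples. Tek was below it by 0.53 in control and 1.10 in RVO samples, and Ptprb by 0.78 and 1.97. RVO samples were also all below control samples, by 0.28 for Tie1, 0.57 for Tek and 1.19 for Ptprb. In none of these comparisons did the groups overlap, and each had the smallest exact two-sided permutation p of 0.1 (0.109 after adjustment over 12 tests). For Tie1, RVO and control samples were barely apart (-1.11 in RVO sample 3 and -1.10 in control sample 2). Of the markers called between RVO and untreated samples, Vwf, Egfl7 and Cdh5 rose more than Tie1 (1.03), Pecam1 rose less and Slco1a4 fell. Angpt2 was below the untreated level by 1.32 in control and 0.67 in RVO samples (exact p = 0.1), and the latter overlapped control samples (exact p = 0.4).

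**Figure D4:**
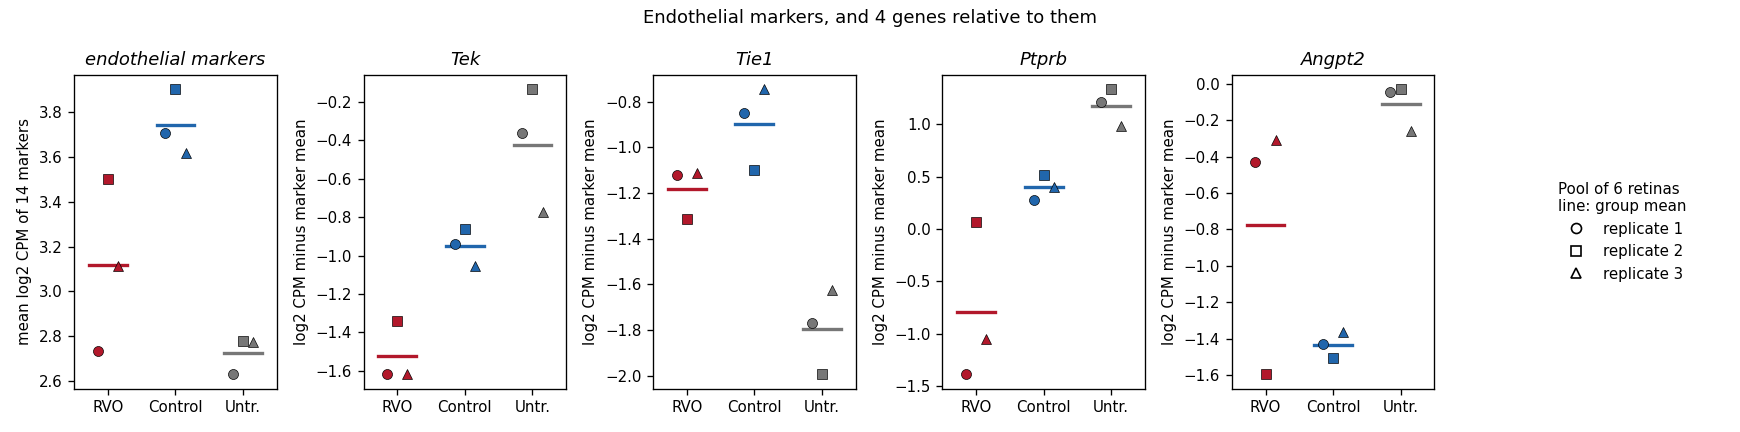
Mean log2 CPM of 14 endothelial markers (left), and log2 CPM of Tek, Tie1, Ptprb and Angpt2 minus that mean, in each pool with a line at the group mean. The axes do not start at 0. Tie1 was above and Tek and Ptprb below their untreated levels in all laser-treated samples.

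Pericytes and smooth muscle cells, which surround the endothelium, were followed by 11 markers. In control relative to untreated samples 5 of 11 tested were higher, namely Acta2 (1.43), Notch3 (1.39), Des (1.29), Cspg4 (1.10) and Pdgfrb (0.62), and 0 lower, beside 27.2% and 25.2% of all genes. Between RVO and untreated samples Acta2 (3.01) and Tagln (1.98) were higher and Abcc9 (-2.01) and Rgs5 (-1.0) lower of 10 tested, beside 27.4% and 24.6% of all genes. Relative to control samples none passed 0.01 (edgeR), while 2 were higher and 5 lower under 0.05, beside 17.5% and 17.1% of all genes. The summed level of the 11 markers was 105 to 120 CPM in untreated, 120 to 144 CPM in control and 86.8 to 171 CPM in RVO samples. The part of these cells in the values of Angpt1 was not tested.

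Of the angiopoietin-like genes, Angptl4 had the highest log2 fold change of the 7 genes in RVO eyes, relative to either other group, and came second to Tie1 between control and untreated eyes. It was measured at 1.45, 1.88 and 1.93 CPM in untreated samples, 5.57, 6.32 and 7.58 CPM in control samples and 20.6, 17.1 and 21.3 CPM in RVO samples. The 3 groups were separated without overlap. Relative to untreated samples, Angptl4 was 11.4-fold higher in RVO eyes (log2 fold change 3.51 ± 0.17, adjusted p = 4.34e-06) and 3.71-fold higher in control eyes (1.89 ± 0.20, adjusted p = 3.68e-06). RVO samples exceeded control samples 3.04-fold (1.60 ± 0.15, adjusted p = 0.00564).

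Angptl2 was raised in RVO samples, at 17.8, 19.0 and 13.8 CPM. It had 8.60, 6.63 and 5.61 CPM in control samples and 6.63, 5.79 and 3.79 CPM in untreated samples, and these 2 groups overlapped. RVO samples exceeded untreated samples 3.21-fold (log2 fold change 1.68 ± 0.22, adjusted p = 0.000291) and control samples 2.43-fold (1.28 ± 0.19, adjusted p = 0.00943). Between control and untreated samples the log2 fold change was 0.39 ± 0.21, with an interval of -0.05 to 0.84 (adjusted p = 0.111).

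In the comparison of RVO and control samples, the calls of Angptl2 and Angptl4 lay near the threshold. Both were lost at 0.01 without any 1 of RVO samples 1 and 3 and control samples 1 to 3, where the adjusted p was 0.0216 to 0.0566 for Angptl2 and 0.0118 to 0.0374 for Angptl4. Both calls were also lost when the replicate number was taken as a block (adjusted p = 0.0314 each). Without a sample, the log2 fold changes stayed between 1.14 and 1.46 and between 1.5 and 1.73. The ratio of Angptl4 to Angptl2 was higher in RVO (1.83) and control samples (1.51) than in untreated samples on the log2 scale, without overlap (exact two-sided permutation p = 0.1, adjusted 0.2). It overlapped between RVO and control samples (difference 0.32, exact p = 0.5).

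Markers of other cells also differed between the groups. The summed level of 6 fibroblast markers was 25.1 to 31.0 CPM in untreated, 29.8 to 39.5 CPM in control and 58.1 to 72.3 CPM in RVO samples. That of 8 monocyte and macrophage markers was, in the same order, 12.4 to 16.4 CPM, 43.5 to 59.9 CPM and 96.2 to 112 CPM, with Ly6c2 at 0 in untreated samples. That of 5 neutrophil markers was 0.469 to 1.18 CPM, 8.08 to 24.5 CPM and 46.5 to 103 CPM, with Cxcr2 and Mmp8 at 0 in untreated samples. For 6 platelet markers, a cell type known to hold Angpt1, it was 6.18 to 7.58 CPM, 15.7 to 19.0 CPM and 19.0 to 22.3 CPM, with Pf4 at 0 in untreated samples and Gp6 at 0 in control and untreated samples. In contrast, 7 Mueller cell markers summed to 4880 to 5115 CPM, 3150 to 3788 CPM and 1914 to 2818 CPM. Of this sum, Glul alone had means of 2601, 1255 and 652 CPM. In control relative to untreated samples 1 Mueller cell marker was called higher and 3 lower, beside 27.2% and 25.2% of all genes. The 8 pigment cell markers summed to 201 to 236 CPM in untreated, 131 to 200 CPM in control and 187 to 475 CPM in RVO samples. Between RVO and untreated samples, 4 of 6 fibroblast, 6 of 8 monocyte and macrophage, 5 of 5 neutrophil and 3 of 4 tested platelet markers were called higher, and 3 of 7 Mueller cell markers lower. Of all genes tested, 27.4% were called higher and 24.6% lower in this comparison. Of 8 pigment cell markers 1 was called lower and 0 higher, while 3 were higher under 0.05 (beside 5635 of 16380 genes) and the median log2 fold change was 0.84. The part of these cells in the results was not tested.

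**Figure D5:**
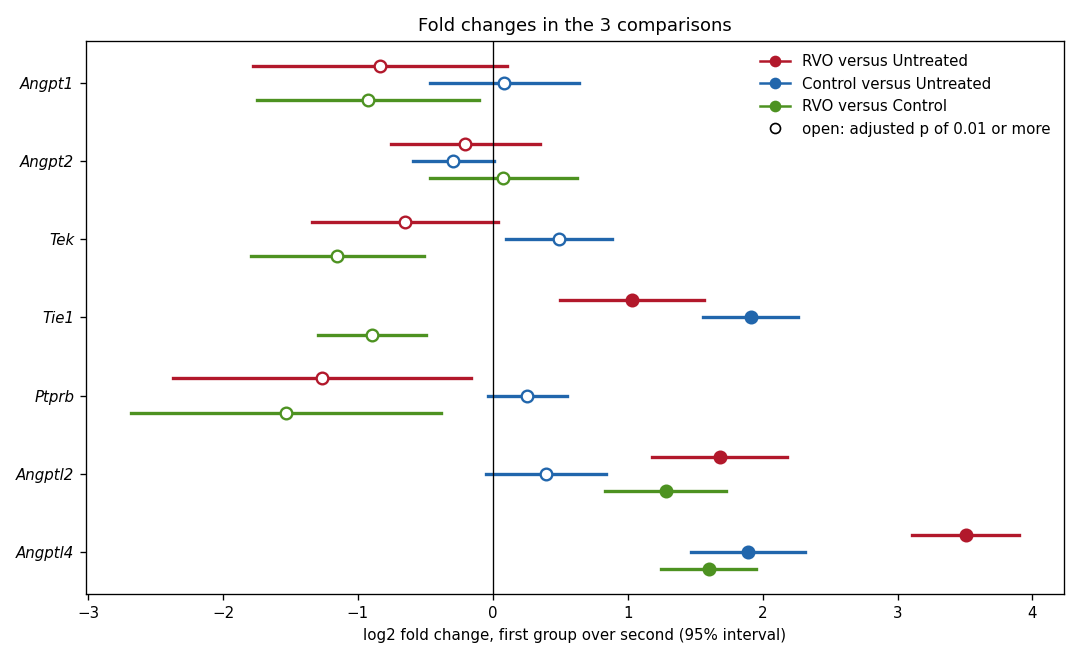
Log2 fold change of the 7 genes with its 95% interval in the 3 comparisons, where filled points had an adjusted p under 0.01 (edgeR's quasi-likelihood test, Benjamini-Hochberg adjustment). The filled points are Tie1, Angptl2 and Angptl4 for RVO to untreated, Tie1 and Angptl4 for control to untreated, and Angptl2 and Angptl4 for RVO to control samples.

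Counted together at an adjusted p under 0.01, RVO eyes had 3 of 7 genes above and 0 below untreated eyes, whereas 27.4% of 16380 genes tested were higher and 24.6% lower. Between control and untreated samples 2 of 7 were higher and 0 lower, beside 27.2% and 25.2% of 16066 genes. Between RVO and control samples 2 of 7 were higher and 0 lower, beside 2.7% and 0.634% of 16874 genes. At an adjusted p under 0.05, Tek, Tie1 and Ptprb were also counted as lower in RVO than in control samples (3 of 7), where 17.5% of genes were higher and 17.1% lower. Both comparisons with untreated samples share those samples.

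RVO and untreated samples were separated without overlap for 4 of 7 genes (73.2% of all genes tested). The same held for 3 of 7 between control and untreated samples (69.8%) and for 6 of 7 between RVO and control samples (52.4%). In the last comparison Angptl2 and Angptl4 were higher and Angpt1, Tek, Tie1 and Ptprb lower in all RVO samples. The median log2 fold change of the 7 genes was -0.20, 0.39 and -0.90 in the 3 comparisons, and 0.01, 0.01 and 0.02 over all genes tested. Scaling by library totals alone moved the latter by 0.21, 0.17 and 0.05.

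Levels of different genes were compared per kilobase of exons. In untreated samples Angpt2 was the highest (1.67 ± 0.14 CPM per kb, SD, n = 3) and separated from the next, followed by Ptprb (1.13 ± 0.15), Tek (1.07 ± 0.24) and Angptl2 (0.860 ± 0.232), whose ranges overlapped in turn. Angptl4 (0.495 ± 0.074), Tie1 (0.390 ± 0.053) and Angpt1 (0.323 ± 0.093) were lower, and each overlapped the next.

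In control samples Angptl4 (1.83 ± 0.29 CPM per kb), Tek (1.48), Tie1 (1.46), Angpt2 (1.34), Ptprb (1.33) and Angptl2 (1.11) each overlapped the next, and Angpt1 was apart (0.331 ± 0.035). In RVO samples the order was Angptl4 (5.56 ± 0.63), Angptl2 (2.68 ± 0.43) and Angpt2 (1.42 ± 0.45), without overlap, followed by Tie1 (0.787), Tek (0.668), Ptprb (0.465) and Angpt1 (0.177), each of which overlapped the next. With the length of the longest transcript in place of all exons, Angptl2 took rank 2 in control and in untreated samples.

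Other genes of the Tie pathway, 24 adaptors, effectors and partners, were counted in the same way. Of 23 tested, 11 rose and 4 fell from untreated to RVO samples (median log2 fold change 0.33), and 10 rose and 3 fell from untreated to control samples (0.15). RVO samples exceeded control samples in 3 of these genes and were below them in 0 (0.23). The shares of all genes tested were 27.4% and 24.6%, 27.2% and 25.2%, and 2.7% and 0.634% in these comparisons. The largest changes in RVO relative to untreated samples were those of Itga5, an integrin subunit (2.98 ± 0.19), Ets1, an endothelial ETS factor also found in leukocytes (2.97 ± 0.35), and Dok2, an adaptor of Tek (2.31 ± 0.39). Itga5, Dok2 and Ets1 also led in control relative to untreated samples, at 1.90, 1.74 and 1.38. Between RVO and control samples Itga5 (1.07), the adaptor Shc1 (0.69) and the integrin subunit Itgb1 (0.66) were higher. Angpt4, a further angiopoietin chosen here after its values were seen, rested on 3 to 53 counts per sample, and its log2 fold change between RVO and control samples was 1.69 ± 0.53 with overlapping groups (adjusted p = 0.0425). Svep1, a ligand of Tie1, was too low to be tested in any comparison.

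Of 5 other angiopoietin-like genes, 2 were tested against untreated samples in each comparison. Relative to untreated samples, Angptl6 was 4.48-fold higher in RVO and 2.41-fold higher in control eyes (adjusted p = 0.00012 and 3.41e-05). Angptl7 in RVO eyes was at least 2.92-fold higher, against a floor of 3 counts per library in untreated samples. Angptl8, a partner of other family members in the inhibition of lipoprotein lipase, had 0 to 2 counts in every sample and was not tested. Relative to control samples 0 of 3 passed 0.01 (edgeR), and 2 were higher and 1 lower under 0.05, beside 17.5% and 17.1% of all genes.

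Partners and regulators of the angiopoietin-like proteins were followed by 11 genes. From untreated to RVO samples 5 of 10 tested rose and 0 fell (median log2 fold change 0.72), beside 27.4% and 24.6% of all genes. Under 0.05, Lpl, the lipase that Angptl4 inhibits (-0.63, adjusted p = 0.0393), Nrp2 (-0.61, 0.0267) and Ppara (-0.53, 0.0201) were also lower. Of the 5, Pirb, a receptor of leukocytes that binds angiopoietin-like proteins, was at least 12.2-fold higher, and the log2 fold change was 1.91 for Pparg and 1.22 for Ppard, nuclear receptors that induce Angptl4. It was 1.56 for Sdc4, a heparan sulphate proteoglycan, and 0.91 for Lmf1, a factor needed for the maturation of lipases. In control relative to untreated samples 5 were higher and 0 lower of 9 tested (0.47), beside 27.2% and 25.2% of all genes, with Pirb at least 5.24-fold higher, Sdc4 at 0.81, Nrp1 at 0.59, Ppard at 0.56 and Lmf1 at 0.47. Of 10 tested, Sdc4 (0.74) and Ppard (0.65) were higher and 0 lower relative to control samples (0.18), beside 2.7% and 0.634%. Gpihbp1, which anchors lipoprotein lipase on capillaries, had 0 to 2 counts in every sample and was not tested.

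Targets of the PPAR receptors, which share this regulation with Angptl4, were counted last. Of 9 tested, 3 rose and 1 fell from untreated to RVO samples (median log2 fold change 0.09), namely Plin2, a lipid droplet protein (3.38 ± 0.20), Ucp2 (1.44) and Pdk4 (1.29), and Acadm (-0.72), an enzyme of fatty acid oxidation. The shares of all genes, 27.4% higher and 24.6% lower, were 27.2% and 25.2% for control and untreated samples. In control relative to untreated samples Plin2 (1.73) and Ucp2 (0.78) were higher and Acadm (-0.18) lower (median -0.03). Plin2 was the single target that passed in RVO relative to control samples (1.63, median 0.36), beside 2.7% of all genes higher and 0.634% lower.

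Genes with the most similar pattern were found by the root mean square (RMS) difference of log2 levels, centred per gene, over the 9 samples among 14974 genes. Nearest to Angptl4 was Cebpb (RMS 0.218), followed by Smim3 and Oaf, beside a median RMS of 1.43 for all genes. Angptl2 was nearest to Dock5 (0.194), Fbln1 and Tagln, Tie1 to Slc16a11 (0.195), Vwa1 and C1qtnf4, and Ptprb to Prdm13 (0.175), Pvalb and Ndnf. Tek was nearest to Pcdhb10 (0.123), Ankrd6 and Mrap2, Angpt1 to Kcns2 (0.125), Chrm1 and Pcdha9, and Angpt2 to Gm44616 (0.104), Efcab7 and 4930453N24Rik. The points share libraries, and the genes differ in depth.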

How the data were processed

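RNA of 9 retina pools was sequenced by the authors as single reads of 50 bases from stranded poly-A libraries (TruSeq). Per the labels and the study's methods, reads were mapped with STAR 2.5.2b to mouse with annotation Gencode vM11, and the authors deposited raw counts per gene from featureCounts (Subread 1.5.1), without normalization. Whether strand was used and how reads matching several genes were counted is not given in the sources used here. All columns were used (0 left out), and samples were grouped by their titles. Nothing in the labels numbers the mice behind each pool, so p-values measure the spread between pools.

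The analysis used edgeR 4.0.16 (R 4.3.3), with filterByExpr, TMM factors and the quasi-likelihood test, fitted to each pair of groups on its own. P-values received the Benjamini-Hochberg adjustment over all genes tested, with a threshold of 0.01. The standard error is the log2 fold change divided by the square root of F, and 95% intervals use the t quantile of its degrees of freedom. Ratios were compared by exact two-sided permutation of samples. Against a group with 3 counts or fewer in every sample, a fold change was computed against 3 counts per library, which covers counting error only.

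Counts of 16109, 15857 and 16643 genes were simulated for RVO and untreated, control and untreated, and RVO and control samples. In each, 199 or 200 genes with a mean above 1 CPM were changed. The procedure found 71.0%, 90.0% and 67.7% of 2-fold changes and 95.3%, 100% and 93.5% of 4-fold changes, with 2, 9 and 2 false calls. The data held more calls (8529, 8416 and 563), so these rates do not carry over directly to them, nor to genes below 1 CPM. Replicates differed by more than sampling noise (chi-square per degree of freedom 3.34 to 59.5), and each was counted as 1 sample.

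The 7 genes, the lists and the tests were chosen with earlier results of these data known. Within a list, the genes named are those called, or the 3 with the largest change where more than 5 were called, and those at 0. A few others are named for an adjusted p under 0.05 or for their level. Marker lists other than endothelial, pericyte and horizontal cell are given by counts and summed levels, with only genes at 0 and Glul named. For each of the 7 genes the 3 nearest genes with a mean of at least 1 CPM are named, computed on log2 of CPM plus 0.1. Alternatives were DESeq2 1.42.0 and its size factors, library totals alone, no filter or at least 1 CPM in 3 samples, all 9 samples in 1 fit, the replicate number as a block, a threshold of 0.05, other marker or length choices, and each sample left out. Removing trends with GC content and length was chosen after seeing the data. The result of 1 gene of these lists is not reported here. Promoter sequences were taken from RefSeq, in which 3 of the 7 genes were matched.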

Additional observations from a re-analysis of the deposited data

How the results depend on the processing

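Angptl2 and Angptl4 (RVO to untreated) and Tie1 and Angptl4 (control to untreated) kept their direction and passed 0.01 under every alternative run. Of 7 genes, 3 were called between RVO and untreated samples (2 to 6 with a sample left out) and 2 between control and untreated samples (4 with GC content and length trends removed, which added Tek and Ptprb). Over all genes, 8529 were called between RVO and untreated samples (6008 to 10491 with a sample left out). Between control and untreated samples 8416 were called (5845 with these trends removed). Between RVO and control samples 2 were called, but 5 at an adjusted p under 0.05, 4 with no filter on low counts, 4 by DESeq2's Wald test, 4 with all 9 samples in 1 fit, 1 with a filter of 1 CPM in 3 samples, and 0 to 6 with a sample left out (6 without RVO replicate 2, 0 without any other). Over all genes, the calls between RVO and control samples were 563 of 16874 in the main fit and 5836 under 0.05. They were 3309 of 29742 with no filter, 4043 by DESeq2's Wald test and 3853 of 17112 in 1 fit. With 1 CPM in 3 samples they were 380 of 15196. Without RVO replicate 2 they were 6257 of 17199, and without any other sample 0 to 29. The causes were not tested. Ptprb also passed between RVO and untreated samples with no filter (adjusted p = 0.00388), and Tek between control and untreated samples with no filter (0.00298) or library totals alone (0.00703).

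With the replicate number as a block, 0 of 7 genes were called between RVO and control samples (edgeR, adjusted p = 0.0314 for Angptl2 and for Angptl4), as were 0 of all genes, although 7227 genes had an unadjusted p under 0.05 and DESeq2 without the block called 4043. Ptprb passed between RVO and untreated samples (0.00419) and Tek between control and untreated samples (0.00817), and no other call changed. Deviations of same-numbered RVO and control samples correlated at -0.17, -0.17 and 0.09, and the labels do not say whether same-numbered pools hold the same mice, so the numbers were not taken as pairs. With 1 sample left out (RVO 3, control 2 or control 3), edgeR called 0 genes, and 6100, 6916 and 6311 had an unadjusted p under 0.05.

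Directions were reversed for Angpt2 between RVO and untreated samples with library totals alone (0.012), for Angpt1 between control and untreated samples with a sample left out (-0.13 to 0.29) and for Angpt2 between RVO and control samples with a sample left out (-0.20 to 0.24). Library totals alone also raised the share of higher genes among all calls to 68.5% (RVO to untreated) and 70.4% (control to untreated). The smaller totals of untreated samples limit the precision of Angpt1, Tie1 and Angptl4 there.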
